A study of Mus musculus with 4 samples.

Results

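The transcripts of the suppressor of cytokine signalling (SOCS) family were followed here through the N6-methyladenosine (m6A) peaks of mouse natural killer (NK) cells. The members were the 8 genes Socs1 to Socs7 and Cish, which encodes the protein CIS. They were chosen by name and not by a measured value, although earlier results of these data were known. A row of the peak list belonged to a member when its gene identifier was that of the gene. Of 20727 distinct peaks in 12351 genes, 17 peaks in 6 of the 8 genes met this rule. Socs5 and Socs6 had 0 peaks.

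The data came from splenic NK cells of C57BL/6 mice measured by MeRIP-seq, the sequencing of immunoprecipitated methylated RNA. Poly(A) RNA was cut into short fragments, an antibody against m6A pulled down the fragments that carried the mark, and these were sequenced beside fragments that had not been pulled down. The labels give 2 m6A immunoprecipitates (IP) and 2 input libraries. According to the study's methods, the NK cells of both groups had been expanded in the animals with a pLIVE-IL-15 plasmid and sorted by flow cytometry. The methods give age only as a range of weeks for all mice of the study and not for these animals, and sex and the pooling of animals were not given in the sources used here. The list held 1 fold enrichment and 1 p-value per peak for all libraries together, so the depth of each library is unknown and no value below has an error between replicates. Of the NK cell marker genes examined, 9 of 9 had a peak, among them Ncr1, Klrb1c and Eomes. A peak was also found at 2 of 4 B cell, 3 of 5 T cell and 4 of 4 myeloid marker genes. Of all annotated protein-coding genes, 46.3% had a peak. The myeloid genes included Itgam, which encodes CD11b, a protein that the study also used to stage NK cells. A peak measures enrichment over input and not expression, and the part of other cells in the SOCS peaks was not tested. In such bulk RNA, fewer cells of a type and less RNA per cell cannot be told apart.

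Several SOCS proteins are feedback inhibitors of cytokine receptors. STAT factors switch on the genes of these members after a cytokine binds. The proteins then attach through an SH2 domain to phosphorylated receptors or Janus kinases (JAKs). The C-terminal SOCS box of the family recruits Elongin B, Elongin C and Cullin 5, which mark the bound partner for degradation. In NK cells CIS is known as a brake on IL-15 signalling. In T cells Socs1, Socs3 and Cish transcripts have been described as m6A targets whose decay depends on the methyltransferase METTL3. In NK cells without METTL3 that were stimulated with IL-15, the study saw no change of SOCS3 by immunoblot and nearly unaltered STAT5 phosphorylation. It also reported by RNA-seq an unchanged level of IL-15 pathway transcripts, from a gene list that held Socs1 and Socs3. It proposed that m6A acts there by another mechanism than in T cells.

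m6A is placed in the motif DRACH, in which D stands for A, G or T, R for A or G, and H for A, C or T. The following sites carried this motif nearest to the centre of the peaks that lay closest to the stop codon or had the lowest p-values in their gene. They are shown because they are the candidate methylated positions of the peaks on which the description turns. The 5 motif bases are in capitals with the A that could be methylated in their middle, each sequence runs 5′ to 3′ on the strand of the gene, and T stands for U. They come from GENCODE M21 transcripts and matched the GRCm38 genome. The antibody does not resolve single bases, so no listed A was itself measured.
Socs1, 3′ UTR, chr16:10783974-10783998, minus strand: tctggggccaGGACCtgaattccac
Socs3, start of the 3′ UTR, chr11:117967374-117967398, minus strand: agagctggcaGGACCtggaattcgt
Socs3, end of the 3′ UTR, chr11:117966183-117966207, minus strand: gatgcttgaaAAACTcaaccaaatc
Cish, start of the 3′ UTR, chr9:107300954-107300978, plus strand: gtccccagctGGACTtggggttctg
Socs2, 3′ UTR, chr10:95411679-95411703, minus strand: aatggctttaGAACTttccaagtta
Socs7, 3′ UTR, chr11:97393783-97393807, plus strand: tctcttccgtGAACCtggagggagg
Socs4, 5′ UTR, chr14:47289554-47289578, plus strand: gaaaagctgaAAACAcaatatttat

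m6A peaks were found at 6 of the 8 genes, where 46.3% of all annotated protein-coding genes had a peak. The number of peaks was 4 at Socs2, 4 at Socs3, 3 at Socs7, 3 at Cish, 2 at Socs1 and 1 at Socs4. Among coding genes with any peak, 46.7% had at least 2, 19.7% at least 3 and 7.9% at least 4. Fold enrichments of the 17 peaks ran from 1.25 to 15.2 with a median of 2.77, and the median over all peaks was 2.66. Values of at least 2 were found in 13 of the 17, where 63.9% of all peaks had one. Peaks enriched at least 5-fold, the limit taken by the study for its own pathway test, are called strong here. That limit was reached by 4 of the 17 peaks, in 2 genes, where 34.6% of all peaks were strong. A p-value under 0.001 was reached by 9 of the 17 peaks, where 61.5% of all peaks reached it, and these 9 peaks belonged to the 5 genes Socs1, Socs2, Socs3, Socs7 and Cish, where 34.0% of all coding genes had such a peak.

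The strong peaks and the peaks on coding transcripts were different peaks. Of the 17 peaks, 13 overlapped an exon of a protein-coding isoform, and their fold enrichments lay between 1.25 and 4.0. The other 4 overlapped only exons of isoforms not annotated as protein-coding, and theirs lay between 5.69 and 15.2. Isoforms annotated as subject to nonsense-mediated decay were not counted as coding here. Of the peaks of all coding genes, 9.85% overlapped no coding isoform. The ranges of the 13 and the 4 peaks did not overlap. Across the peaks of all coding genes, a strong fold enrichment was found in 53.1% of the 1797 peaks that touched no coding isoform and in 26.9% of the 16453 peaks that touched one. A p-value under 0.001 was reached by 9 of the 13 peaks and by 0 of the 4, beside 61.5% of all peaks. That share was not computed separately for peaks on and off coding isoforms.

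**Figure D1:**
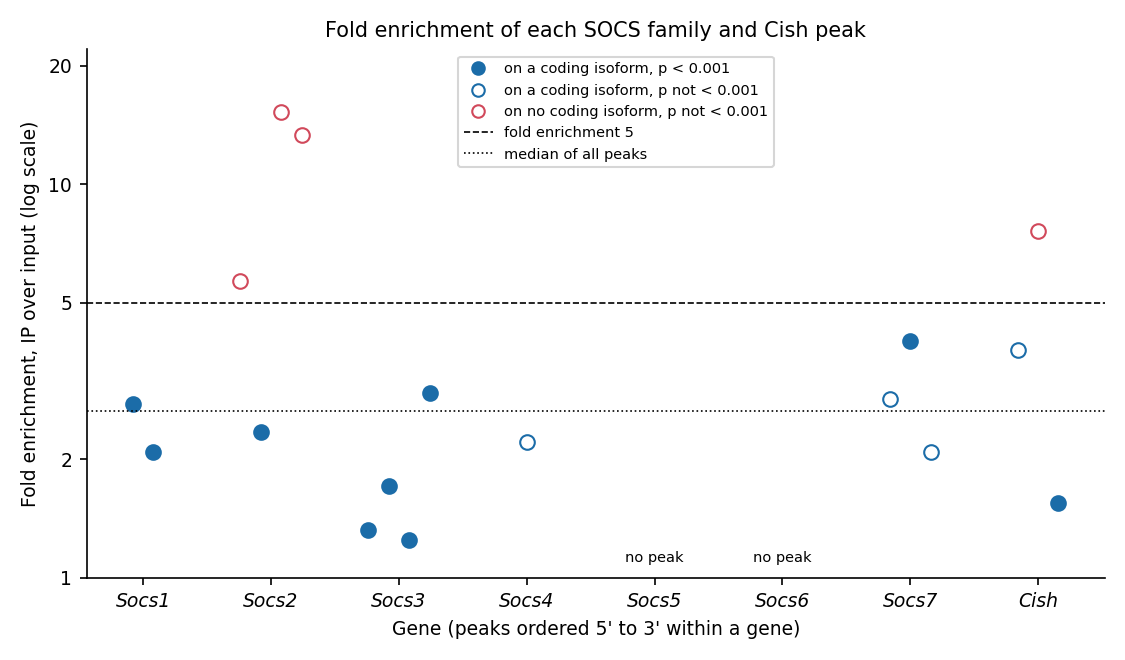
Fold enrichment of m6A IP over input (log scale) for each of the 17 peaks, by gene and ordered 5′ to 3′ within a gene. Each point is 1 peak, filled where its p-value was under 0.001, and the lines mark the median of all peaks (2.66) and a fold enrichment of 5. The 4 points above 5 are 3 Socs2 peaks and 1 Cish peak, all open and all on no coding isoform, and the 13 peaks on coding isoforms lie at or under 4.0.

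Socs3 carried the most significant of the 17 peaks. SOCS3 blocks JAKs bound to the gp130 receptor chain shared by the IL-6 family of cytokines. Its gene (ENSMUSG00000053113, chromosome 11, minus strand) has a coding transcript of 2552 nt in 2 exons, and its 4 peaks lay in exon 2 and covered 37.5% of that transcript. The median gene with a placed peak had 12.1% covered, with an interquartile range from 5.45% to 28.2%.

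The 4 Socs3 peaks ran from the coding sequence to the last base. The first (chr11:117967926-117968016, 91 nt) lay in the coding sequence and was enriched 1.32-fold (log10 p -3.46). The second (chr11:117967152-117967569, 418 nt) held the stop codon, reached 401 nt into the 3′ UTR and was enriched 1.71-fold (log10 p -20.0). The third (chr11:117966645-117966734, 90 nt) was centred 863 nt past the stop codon, and was enriched 1.25-fold (log10 p -7.05). The fourth (chr11:117966079-117966437, 359 nt) ended at the last base of the transcript and was enriched 2.95-fold (log10 p -62.3). All 4 had a p-value under 0.001. The fourth was the highest of them in both measures: 95.5% of all peaks were less significant, but only 53.1% had a lower fold enrichment. The first and the third were among the weakest by fold, since 5.91% and 3.16% of all peaks had a lower value.

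Socs3 peaks also differed in their motifs. The peak at the stop codon held 9 DRACH sites, 4 of them with a GGAC core. The same core was absent from the peak at the end of the 3′ UTR, which held 5 DRACH sites, although 70.8% of all placed peaks of like length (80 to 125% of its exonic length) held at least 1 GGAC. The GGAC sites of the peak at the stop codon are shown because this was the family's peak with the most DRACH sites of that core, and the first of its 4 is printed above.
Socs3, 268 nt past the stop codon, chr11:117967273-117967297, minus strand: tggcctggtgGGACAatacctttga
Socs3, 288 nt past the stop codon, chr11:117967253-117967277, minus strand: tttgacaagcGGACTctcccctccc
Socs3, 340 nt past the stop codon, chr11:117967201-117967225, minus strand: agggaggtggGGACAcctccaagtg

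Socs1 carried 2 significant peaks on its coding isoforms. SOCS1 inhibits JAKs directly and limits interferon and common gamma chain cytokine signals. Its gene (ENSMUSG00000038037, chromosome 16, minus strand) has a coding transcript of 2908 nt in 2 exons, of which 30.8% lay in peaks. The first peak (chr16:10784611-10785536) began at the first base of the transcript and covered the whole 5′ UTR of 276 nt and 261 nt of coding sequence, with the 389 nt intron between them in its span. It was enriched 2.77-fold (log10 p -12.2). The second (chr16:10783838-10784195, 358 nt) began 38 nt past the stop codon and was enriched 2.09-fold (log10 p -13.1). The values of these peaks were close, and 78.4% and 79.9% of all peaks were less significant than them. The authors labelled the first as 5′ UTR, and its centre lay there, 8 nt before the start codon.

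DRACH sites were sparse under the Socs1 peak at the 5′ end. It held 3 sites in 537 exonic nt, and 1.16% of all placed peaks of like length held fewer. Both sites of its coding part had a GGAC core, and they are shown because the remaining site lay far from them, at the start of the 5′ UTR.
Socs1, coding sequence, chr16:10784649-10784673, minus strand: cgcatcacgcGGACCagcgcgctcc
Socs1, coding sequence, chr16:10784611-10784635, minus strand: cttctattggGGACCcctgagcgtg

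Cish had a small peak just past its stop codon and signal at the end of its 3′ UTR that the list named for another gene. CIS binds the activated receptor complex and the kinase JAK1 in NK cells. Its gene (ENSMUSG00000032578, chromosome 9, plus strand) has a longest coding transcript of 2850 nt in 3 exons. The peak in exon 3 (chr9:107300925-107301015, 91 nt) was centred 70 nt past the stop codon, and was enriched 1.55-fold (log10 p -3.18). The GGACT site printed first for Cish lay 4 nt from its centre and 66 nt past the stop codon. A peak in the 5′ UTR (chr9:107296266-107296656, 391 nt) was enriched 3.79-fold (log10 p -1.31). It lay at the limit of the list, since 0.0289% of all peaks were less significant and 199 peaks shared this pair of values. The peak chr9:107299505-107299715 (211 nt) fell within intron 1 of that transcript, on an exon of a non-coding isoform, and was enriched 7.59-fold (log10 p -1.96). Of the 3 peaks only the first described reached a p-value under 0.001.

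The end of the Cish 3′ UTR lay under 2 further rows of the list, which carried the name of Gm17041 (ENSMUSG00000090570), an antisense transcript on the minus strand. They were outside the rule and were picked out with their values known. The row chr9:107301689-107301838 was enriched 1.69-fold (log10 p -4.07), and its 150 nt were exonic in both genes. The row chr9:107301824-107301974 was enriched 2.42-fold (log10 p -7.63). All 151 nt of it lay in the Cish 3′ UTR, ending 13 nt before the end of the transcript, and 15 nt lay in an exon of Gm17041. It held 5 DRACH sites on the Cish strand, and the row described before it held 0. No use of strand in peak calling was given in the sources used here, so reads of these genes cannot be told apart. Both rows were more significant than any row the list named for Cish.

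Socs2 had 4 peaks, but only 1 of them lay on the coding message. SOCS2 is best known as an inhibitor of growth hormone receptor signalling. Its gene (ENSMUSG00000020027, chromosome 10, minus strand) has 14 annotated transcripts, 7 of them coding, and a longest coding transcript of 2222 nt in 3 exons. The peak on that transcript (chr10:95411550-95411819, 270 nt) lay in the 3′ UTR, was centred 968 nt past the stop codon and ended 60 nt before the end of the transcript. It was enriched 2.35-fold (log10 p -8.40), and it was the only Socs2 peak with a p-value under 0.001. This peak was rich in motifs, with 9 DRACH sites, and 87.0% of all placed peaks of like length held fewer. Of these sites 1 had a GGAC core and is shown for comparison with the other genes.
Socs2, 997 nt past the stop codon, chr10:95411644-95411668, minus strand: gtctgaccacGGACAtcaacagctg

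The other 3 Socs2 peaks had the higher fold enrichments and the weaker p-values. The peak chr10:95414700-95414760 (61 nt) lay in intron 2 of the coding transcript, and was enriched 5.69-fold (log10 p -1.66). The remaining pair lay beyond the 3′ ends of the coding isoforms, on exons of isoforms not annotated as protein-coding. The nearer one (chr10:95392716-95410726) began 763 nt past that end, spanned 18011 nt and was enriched 15.2-fold (log10 p -2.91). The farther one (chr10:95387011-95387821, 811 nt) began 23668 nt past that end and was enriched 13.3-fold (log10 p -2.50). Their pairs of values were common in the list, since 226 peaks had the first and 367 had the second. The authors labelled both as 3′ UTR, and both touched an isoform annotated as subject to nonsense-mediated decay and no coding isoform.

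Socs7 and Socs4 carried only short peaks on long transcripts. SOCS7 is an adaptor-like member with a role in insulin receptor signalling. Its gene (ENSMUSG00000038485, chromosome 11, plus strand) has a coding transcript of 7015 nt in 10 exons, of which 4.32% lay in 3 peaks. The first (chr11:97363089-97363149) lay in the coding part of exon 1, and was enriched 2.84-fold (log10 p -1.42). The second (chr11:97393729-97393849), 431 nt past the stop codon, had a fold enrichment of 4.0, the highest of the 13 peaks on coding isoforms, and a log10 p of -3.50. The third (chr11:97397974-97398094), 4676 nt past the stop codon, was enriched 2.09-fold (log10 p -2.59). Of these only the second had a p-value under 0.001. The third was the only placed peak of the family without a DRACH site, where 90.6% of all placed peaks held at least 1. The GGAC site of the first peak is shown as the only such site in a Socs7 peak.
Socs7, coding sequence, chr11:97363135-97363159, plus strand: ttccgctgcaGGACTtggtccctcc

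Socs4 (ENSMUSG00000048379, chromosome 14, plus strand), which has been linked to epidermal growth factor receptor signalling, had a single peak. It covered 61 nt (chr14:47289525-47289585), or 0.887% of a transcript of 6877 nt, and its centre lay 55 nt before the start codon. The fold enrichment was 2.21 and the log10 p -2.51, so it did not reach a p-value under 0.001. It held 3 DRACH sites, and 88.5% of all placed peaks of like length held fewer. The Socs4 site printed above lay 11 nt from its centre.

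Socs5 (ENSMUSG00000037104) and Socs6 (ENSMUSG00000056153) had no row in the list. SOCS5, like SOCS4, has been linked to epidermal growth factor receptor signalling, and SOCS6 to receptor tyrosine kinases such as KIT. Their longest coding transcripts (4648 nt for Socs5 on chromosome 17 and 6036 nt for Socs6 on chromosome 18) are within the range of lengths of the other members. Socs5 held 95 DRACH sites, or 20.4 per kb, and Socs6 held 136, or 22.5 per kb. The members with a peak ran from 16.9 per kb in Socs1 to 31.1 per kb in Socs2. No expression value was analysed here, so an unmethylated transcript and a scarce one cannot be told apart for these genes.

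**Figure D2:**
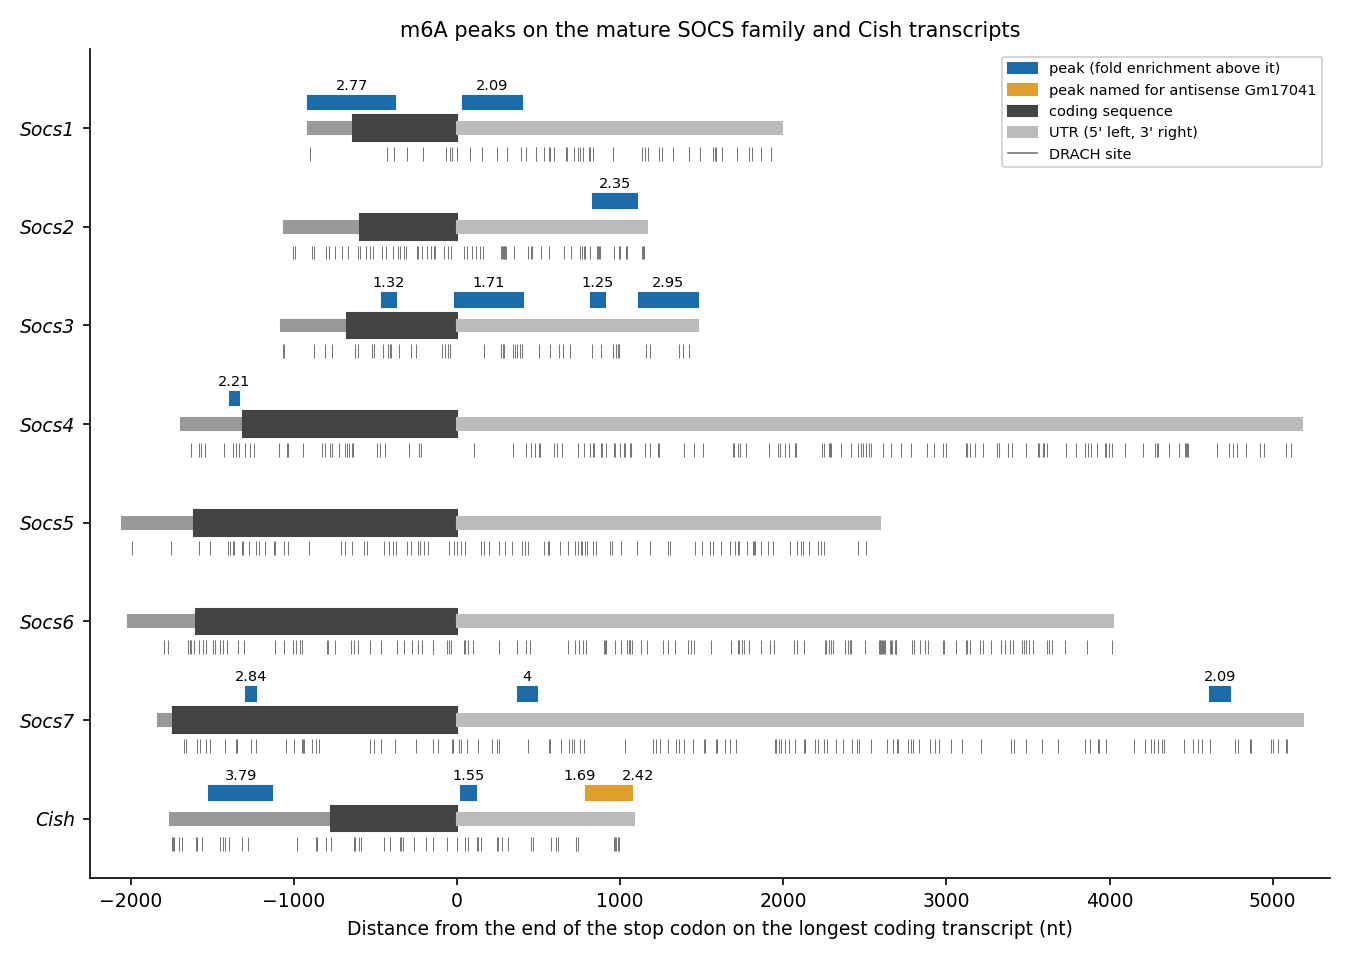
Peaks on the longest coding transcript of each gene, drawn to scale as mature RNA with 0 at the end of the stop codon (nt). Blue bars are the 13 placed peaks with their fold enrichments, the orange bar on Cish covers the overlapping rows named for Gm17041 (1.69 and 2.42), and ticks are DRACH sites. Peaks of Socs1, Socs3 and Cish lie at or just past the stop codon. Socs2, Socs4 and Socs7 have none there, and Socs5 and Socs6 have none at all. DRACH sites are drawn on every transcript.

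By the centre of the exonic part, 8 of the 13 placed peaks (61.5%) lay in the 3′ UTR, 2 in the coding sequence and 3 in the 5′ UTR. Over all 15721 placed peaks these shares were 56.5%, 33.6% and 9.94%. Only 2 of the 13, in Socs3 and Cish, were centred within 200 nt of the stop codon, where 22.3% of all placed peaks lay, and the Socs1 peak in the 3′ UTR was centred 216 nt past it. The last base of 2 peaks, in Socs2 and Socs3, lay within 100 nt of the end of the transcript, as did that of 32.1% of all placed peaks. These counts describe 13 peaks, and no difference from the list was tested.

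The density of motifs under the peaks could not be told apart from that of the surrounding transcript at these counts. The 13 peaks covered 2969 nt and held 51 DRACH sites (17.2 per kb), beside 434 in the other 21455 nt of the same 6 transcripts (20.2 per kb). The ratio was 0.849, with a 95% exact binomial interval from 0.622 to 1.14 that covers counting error only. Sites of the 6 transcripts were pooled, so the spread between genes is not measured. The long Socs4 and Socs7 transcripts, with little of their length in peaks, weigh mostly on the outside. For GGAC, counted whether or not it was part of a DRACH site, the ratio was 1.39 (0.761 to 2.4), from 16 and 83 sites. Both intervals include 1, and over all 9614 genes with a placed peak the ratios were 1.0 and 0.985. The study reported DRACH motifs as significantly enriched in its m6A peaks by a de novo motif search. That search is another measure than the site density used here, and it was not repeated. The members varied: the density was higher under the peaks than outside them in Socs3 (20.9 against 15.7 DRACH sites per kb) and lower in Socs1 (8.94 against 20.4), and neither difference was tested.

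Significance and fold enrichment ordered the family differently. By its lowest p-value the order was Socs3, Socs1, Socs2, Socs7, Cish and Socs4. By highest fold enrichment it was Socs2, Cish, Socs7, Socs3, Socs1 and Socs4. On coding isoforms only, it was Socs7 (4.0), Cish (3.79), Socs3 (2.95), Socs1 (2.77), Socs2 (2.35) and Socs4 (2.21). The Cish value there came from its 5′ UTR peak at the limit of the list (log10 p -1.31). Its only peak with a p-value under 0.001 was enriched 1.55-fold, and Socs4 had no such peak. No spread over samples is available, so neighbours in these orders cannot be told apart by error.

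**Figure D3:**
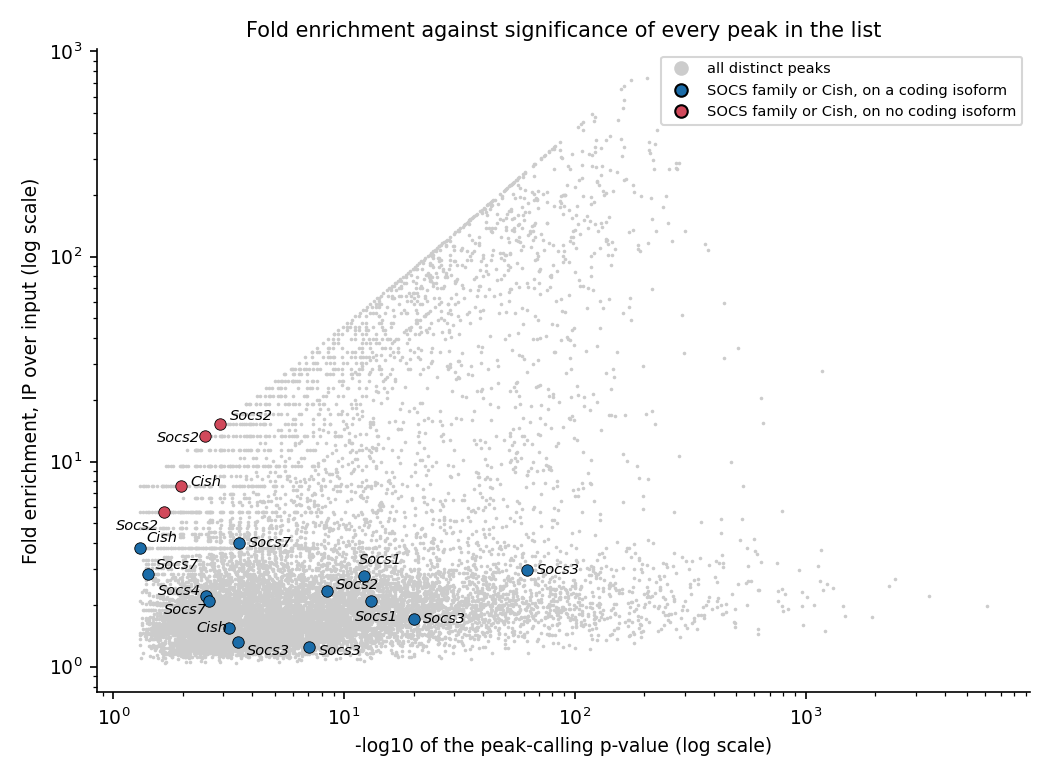
Fold enrichment against -log10 of the peak-calling p-value, both on log scales, for all 20727 distinct peaks (grey) and for the 17 SOCS family and Cish peaks (blue on a coding isoform, red on none). The Socs3 peak with a log10 p of -62.3 stands farthest right among the members at a fold enrichment of 2.95, and the 4 red peaks lie above and left of most blue ones, with higher fold enrichments and weaker p-values.

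The SOCS genes were set beside other genes of the same pathway, in 6 lists with 50 genes together. A peak was found at 44 of them, beside 46.3% of all coding genes, and 7 of the 44 had a strong peak, beside 43.4% of coding genes with a peak. The median fold enrichment of their 78 peaks was 1.82. The coding genes of the annotation were not filtered by expression, and the part of expression in these shares was not tested.

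Upstream of the SOCS proteins, peaks were found at most genes, and only Il6ra and Il21r had a strong one. Among cytokine receptors that signal through JAKs, 14 of 17 had a peak, and Il15ra, Il2ra and Il6st had none. Il2rb, the signalling beta chain of the IL-15 receptor, was enriched 2.53-fold (log10 p -316), and Il2rg, the common gamma chain, had 1.34 at most. The highest values were 64.5 at Il6ra, 11.9 at Il21r and 3.79 at Il10rb. All 4 JAK kinases had a peak, with at most 2.94 at Jak2, 2.19 at Jak1, 1.83 at Jak3 and 1.71 at Tyk2. All 7 STAT factors had a peak, at most 3.79-fold. Stat5a, which with Stat5b acts in IL-15 signalling, had the highest STAT value (3.79). Its peak had a log10 p of -1.31 and touched no coding isoform.

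The partners of the SOCS box also carried peaks. Of the 6 ligase parts 5 had a peak, and Rnf7, which encodes the RING subunit paired with Cullin 5, had none. Eloc (Elongin C) and Ube2f (an enzyme that helps to activate Cullin 5) each had a highest fold enrichment of 7.59. The log10 p of these peaks was -1.66 and -6.02. Cul5 had 2.91 at most. The Ube2f peak touched no coding isoform, and the most significant Eloc peak was enriched 3.4-fold (log10 p -36.8). Elob (Elongin B) had 1.95 with a log10 p of -101. Among other SOCS-box proteins 5 of 6 had a peak, with 28.4 at Spsb4, 10.4 at Wsb2 and 2.96 at Spsb2 as the highest values. Spsb1 had none. The log10 p of the 3 peaks was -5.91, -3.53 and -3.82, and the Wsb2 peak touched no coding isoform.

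Other inhibitors of the pathway had peaks at 9 of 10 genes. The exception was Pias2. The highest fold enrichment was 7.59 at Usp18, which restrains type I interferon signalling (log10 p -2.94). Next came 4.74 at Sh2b3, an adaptor that restrains JAK2 (log10 p -2.27). Ptpn6, which encodes the phosphatase SHP-1, had 4.27 (log10 p -1.95). The most significant Ptpn6 peak was enriched 3.25-fold (log10 p -86.0). In 1 of these 9 genes, Usp18, the fold enrichment was strong.

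**Figure D4:**
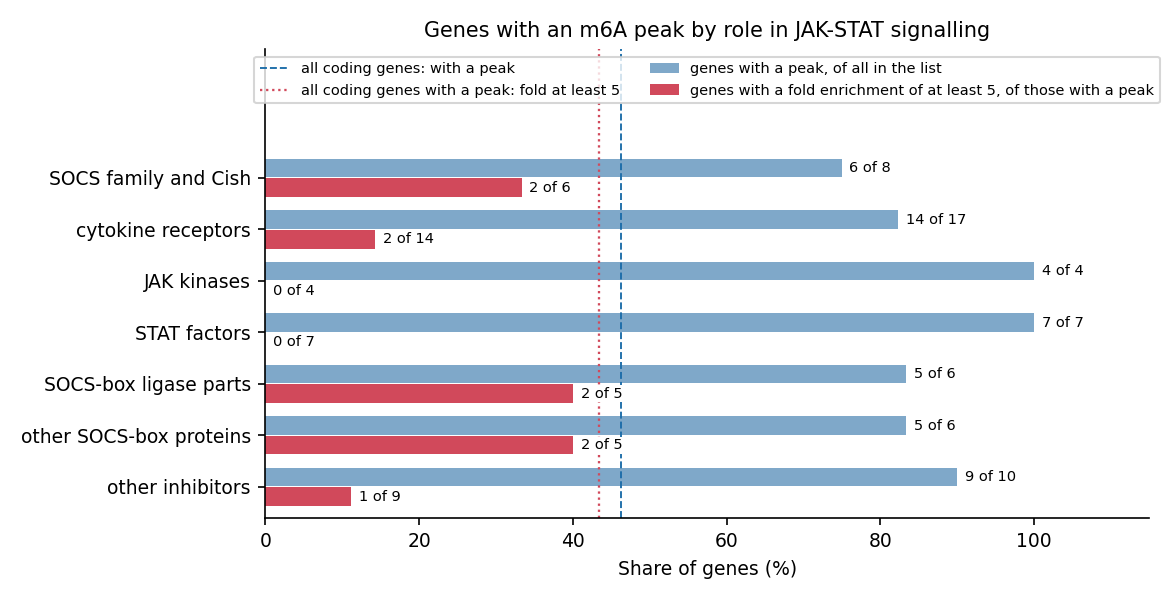
Share of genes (%) with a peak (blue) and, of those, with a fold enrichment of at least 5 (red), for the SOCS family with Cish and for 6 lists of JAK-STAT pathway genes, with counts beside the bars. Dashed and dotted lines mark the shares over all coding genes (46.3%) and over coding genes with a peak (43.4%). Each list lies right of the dashed line and left of the dotted one for the 2 measures, respectively.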

How the data were processed

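Fold enrichment is a ratio of immunoprecipitate over input reads made by the authors. After trimming, they used HISAT2 for alignment to GRCm38, called peaks with exomePeak and assigned genes with ChIPseeker. The deposited significance is a score, the log10 p from peak calling, and its weakest value was -1.30. How replicates were combined was not given in the sources used here, and the list has 0 columns with a value per sample. The file held 20751 rows, of which 24 repeated another row and were dropped.

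Peaks were placed on the longest coding transcript of the named gene (GENCODE M21, GRCm38) by the centre of their exonic part, with Python 3.11.15. Distances count from the last base of the stop codon. DRACH, RRACH and GGAC were searched on the strand of the gene only. Transcript placement and motif search were tested on simulated data. Named were all members and, of each list, at most the 3 genes with the highest fold enrichment, the genes without a peak and others chosen after their values were seen. The members and lists were chosen with earlier results of these data known. No test between conditions was possible, and the planned test per sample was not run.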

Additional observations from a re-analysis of the deposited data

How the results depend on the processing

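Of 24 alternative values for 8 results, 16 stayed near the value reported and 8 moved. The number of genes with a strong peak changed most. It was 2 with a limit of 5-fold, 6 with one of 2-fold, 1 with one of 10-fold, 0 among peaks with a p-value under 0.001 and 0 among peaks on a protein-coding isoform. With a window of 100 nt, 1 peak was centred at a stop codon. The ratio of motif densities was 1.39 with GGAC in place of DRACH. The number of pathway genes with a strong peak was 7 with a limit of 5-fold, 23 with one of 2-fold and 4 with one of 10-fold. Apart from the motif, these settings by construction count more or fewer peaks, and the cause of the motif difference was not tested. The alternatives with the rows named for Gm17041 and with peaks on coding isoforms for the median were chosen after seeing the data. No paired analysis was possible because the list gives no value per sample. Leaving out single replicates was not run either, since it needs such values.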

Other observations

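Peaks at marker genes of myeloid cells reached significance like that of NK cell effector genes. The 3′ UTR peak of Csf1r, the receptor of macrophage colony-stimulating factor, was enriched 1.64-fold (log10 p -322), and that of Lyz2, which encodes lysozyme, was enriched 1.9-fold (log10 p -143). Among NK cell markers the most significant peaks were at Gzma, with a log10 p of -624, Il2rb, with -316, and Gzmb, with -165. The other genes of the myeloid list, Adgre1 and Itgam, had -35.3 and -12.7. Itgam encodes CD11b, which the study also used as a maturation marker of NK cells. Cd79a and Cd79b of B cells had -9.11 and -27.6, and Cd3d, Cd3e and Cd3g of T cells had -9.43, -6.35 and -46.8, whereas Ms4a1, Cd4 and Cd8a had no peak. The share of RNA from other cells was not measured, and its part in the SOCS peaks was not tested.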
